A study of Mus musculus with 14 samples.

Results

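Colon cells that carry the transcription factor ATOH1 were compared with colon crypts in which Atoh1 had been deleted. The comparison took the 3 libraries titled as colon GFP-positive and the 2 titled as colon knockout, which are 5 of the 14 RNA-seq libraries of a study of ATOH1 target genes in mouse ileum and colon. The first arm, here called GFP cells, came from Atoh1 GFP/GFP mice, whose ATOH1 is fused to green fluorescent protein; cells of their colon crypts were sorted by flow cytometry for GFP and against the dead-cell dye 7AAD. The second arm, here called KO crypts, was RNA of isolated colon crypts, for which the labels name no sort, of Atoh1 lox/lox;VilCreERT2 mice aged 6 to 8 weeks. In these mice the Villin promoter drives an inducible Cre recombinase (CreERT2) in the gut epithelium, so cells outside the epithelium keep their Atoh1 alleles. Littermates with the same Cre but only 1 floxed allele (Atoh1 lox/WT;VilCreERT2, 2 libraries, here called WT crypts) are quoted as a further reference. No source used here gives the age of the Atoh1 GFP/GFP mice, the date of Cre induction or any pooling of animals. The arms therefore differed in sorting, in the allele of Atoh1 and in cell composition at once. These 3 cannot be told apart in any comparison of GFP cells with crypts that follows. In bulk RNA, fewer cells of a type and less RNA per cell cannot be told apart either.

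ATOH1 is a basic helix-loop-helix factor that binds E-box DNA and commits intestinal progenitors to the secretory lineage. In the colon this lineage consists of mucus-making goblet cells, hormone-making enteroendocrine cells and deep crypt secretory cells, which support stem cells at the crypt base; Paneth cells belong to the small intestine. Progenitors receiving a Notch signal express Hes1, which represses Atoh1, and become absorptive colonocytes, while cells that keep ATOH1 display Delta ligands to their neighbours.

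The GFP libraries held 12991891, 11168836 and 10498235 gene counts, and the KO libraries 10483695 and 10768362. Values below are counts per 1000000 (CPM) of the TMM-scaled library total, and n is 3 GFP and 2 KO libraries throughout. The arms also differed in what their libraries contained. The 2 ribosomal RNAs of the mitochondrial genome took 38.17 to 44.88% of gene counts in GFP cells, against 0.1359 to 0.1677% in KO crypts. Uniquely placed reads outside genes made up 24.87 to 31.92% of GFP libraries, against 11.43 to 12.1% of KO libraries. GFP library 1 stood apart from the other two by genes of ileal GFP cells, defensins of Paneth cells among them: 20 genes at 100 CPM or more in every ileal GFP library and at most 1 CPM in KO colon stood in it at a median of 2.471% of their ileal GFP level, against 0.04978% and 0.03402% in GFP libraries 2 and 3. Clps and Hist1h4d, also of the 20, were higher in libraries 2 and 3 than in library 1. GFP library 3 stood apart by higher colonocyte and class II antigen presentation genes. Where leaving out a library moved a called fold change by over 1.5 times, the value without it is given, as is that with the trend in GC content and length removed.

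Atoh1 itself (ENSMUSG00000073043), the sorted and the deleted gene, stood at 295, 231 and 264 CPM in GFP cells, against 5.201 and 5.9003 CPM in KO crypts and 62.6 and 44.7 CPM in WT crypts. All GFP libraries were above all WT libraries, which were above all KO libraries, and GFP cells were 47.3-fold above KO crypts (log2 fold change 5.56, SE 0.30, edgeR adjusted p = 2.62e-08). Because Atoh1 defined both arms, this is a check of the labels.

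Among 15274 genes tested, 3643 were higher (23.9%) and 3811 lower (25.0%) in GFP cells at an adjusted p under 0.05 with edgeR's quasi-likelihood test, 48.8% in all. Calls of at least 2-fold made up 31.8%, of which 15.5% were higher and 16.3% lower. The same GFP libraries against WT crypts gave 45.9%, and KO against WT crypts, with 2 against 2 libraries, gave 0.478%. The median log2 fold change over all genes was 0.00. The counts of each gene group are read against these shares. The share of all genes without overlap between arms is not given here, so a lack of overlap only describes the libraries of a gene.

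The transcription factors of the secretory lineage were higher in GFP cells. Of 17 secretory regulators tested, 13 rose, 1 fell and 3 did not pass, with a median log2 fold change of 2.39 (3.02 with the trend in GC content and length removed). The WT mean lay between the GFP and KO means for 15 of the 17. Cbfa2t3, which encodes a corepressor of the ETO family, had 123, 95.001 and 86.7 CPM in GFP cells, against 2.96 and 3.301 CPM in KO crypts. Gfi1, a repressor that holds goblet and Paneth cells off the endocrine route, had 61.97, 34.7 and 36.01 CPM in GFP cells, against 1.95 and 1.76 CPM in KO crypts. For both genes every GFP library was far above every KO library, and the fits gave log2 fold change 5.01, SE 0.26, edgeR adjusted p = 2.13e-08 for Cbfa2t3 and log2 fold change 4.57, SE 0.44, edgeR adjusted p = 3.98e-06 for Gfi1. The log2 fold change became 5.19 for Gfi1 with the GC and length trend removed.

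Spdef, the ETS factor of goblet cell maturation, was listed at 317, 284 and 405 CPM in GFP cells, against 16.04 and 19.2 CPM in KO crypts. It was 18.99-fold higher (log2 fold change 4.25, SE 0.46, edgeR adjusted p = 1.51e-05), and no GFP library overlapped a KO library. Factors that build the secretory apparatus also rose. Bhlha15, which scales up secretory granules and is also known as Mist1, had 34.9, 27.6 and 28.8 CPM in GFP cells, against 1.16 and 0.983 CPM in KO crypts (log2 4.82). The membrane-bound secretory factor Creb3l4 had 147, 155 and 139 CPM in GFP cells, against 5.92 and 8.499 CPM in KO crypts (log2 4.35), and its relative Creb3l1 had 999.8, 952 and 953 CPM in GFP cells, against 190.3 and 179.7 CPM in KO crypts (log2 2.39). The unfolded protein response factor Xbp1 reached log2 2.08 and the forkhead factor Foxa3 log2 2.82. Sox9, a crypt base factor, rose by a log2 of 1.01. Lesser rises were those of Runx1 (log2 1.09) and of Cbfa2t2 (log2 0.75), a relative of Cbfa2t3, while a further relative, Runx1t1, had 1.59, 1.49 and 1.195 CPM in GFP cells, against 0 and 0.281 CPM in KO crypts and was also called. Hes6, an inhibitor of Hes1, had 63.6, 55.7 and 74.3 CPM in GFP cells, against 99.2 and 85.6 CPM in KO crypts and did not pass (edgeR adjusted p = 0.128). Foxa1 and Foxa2, at log2 0.13 and 0.66, did not pass the test (edgeR adjusted p = 0.548 and 0.0656). Refitted log2 fold changes were 4.89 for Spdef and 3.10 for Creb3l1 with the GC and length trend removed. The call was lost for Sox9 without KO library 1 or KO library 2 (edgeR adjusted p = 0.0577 to 0.0824) and Runx1 without GFP library 2, KO library 1 or KO library 2 (edgeR adjusted p = 0.064 to 0.103).

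Klf4, a factor used by both goblet cells and mature colonocytes, went the other way. It had 148, 114 and 124 CPM in GFP cells, against 426 and 515 CPM in KO crypts, and 421 and 472 CPM in WT crypts. GFP cells were lower than every crypt library (log2 fold change -1.87, SE 0.24, edgeR adjusted p = 2.43e-05).

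Goblet cell products stood far higher in GFP cells. Of 18 tested, 17 rose and none fell, with a median log2 fold change of 5.16. Ang4, an angiogenin, was higher but did not pass (log2 3.22, edgeR adjusted p = 0.0618). It was called with DESeq2 (DESeq2 adjusted p = 0.00874), with no filter on low counts and in the 5 colon GFP and KO libraries alone (edgeR adjusted p = 1.93e-18 and 0.000149). In the 7 colon libraries alone it was not (edgeR adjusted p = 0.069). The list's summed level was 83709, 77669 and 81582 CPM in GFP cells, against 2575 and 2989.99 CPM in KO crypts. Muc2, the main gel-forming mucin of colon mucus, had 34344, 33870.4 and 30821 CPM in GFP cells, against 187 and 281 CPM in KO crypts, and 571 and 1568 CPM in WT crypts. It was 141-fold higher in GFP cells (log2 fold change 7.14, SE 0.78, edgeR adjusted p = 1.01e-05), the GFP libraries lying within a narrow band far above both crypt groups. Agr2, the disulfide isomerase that folds mucins, had 16943, 14959 and 12880.4 CPM in GFP cells, against 316 and 261 CPM in KO crypts. Its GFP and KO libraries did not overlap (log2 fold change 5.69, SE 0.49, edgeR adjusted p = 1.06e-06). Zg16, a lectin that keeps bacteria off the epithelium, had 6439, 3956 and 9265 CPM in GFP cells, against 176 and 181 CPM in KO crypts, and the kallikrein Klk1 had 4872, 5094 and 5804 CPM in GFP cells, against 112 and 189.5 CPM in KO crypts. Both rose, by log2 5.20 and 5.12.

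Some products of the mucus layer differed less. Clca1, a metalloprotease that processes Muc2, had 3275, 4458 and 4781 CPM in GFP cells, against 480.3 and 577 CPM in KO crypts, and 2632 and 9397 CPM in WT crypts. Fcgbp, a large protein cross-linked to the mucin net, had 3119.8, 2484 and 2583 CPM in GFP cells, against 488 and 412 CPM in KO crypts, and 3272 and 6838 CPM in WT crypts. For Clca1 the lower WT library was below every GFP library and the higher one above them all; for Fcgbp both WT libraries were above every GFP library. GFP cells were 7.89-fold and 6.07-fold above KO crypts (log2 fold change 2.98, SE 0.73, edgeR adjusted p = 0.00503 for Clca1; log2 fold change 2.60, SE 0.69, edgeR adjusted p = 0.00819 for Fcgbp). The antimicrobial lectin Itln1 had 342, 20.7 and 9.71 CPM in GFP cells, against 1.3002 and 1.897 CPM in KO crypts; its level in GFP library 1 was far above the other two, and its log2 fold change of 6.27 was 3.25 (edgeR adjusted p = 0.00887) without that library. Without GFP library 1 the list still had 17 of 18 higher, with a median of 4.71; the count was 12 without KO library 1 and 13 without KO library 2. The call was also lost in the 5 colon GFP and KO libraries alone for Itln1 (edgeR adjusted p = 0.142) and in the 7 colon libraries alone for Itln1 (edgeR adjusted p = 0.0836). The threshold was missed for Clca1 without KO library 1 (edgeR adjusted p = 0.0563), Fcgbp without KO library 1 or KO library 2 (edgeR adjusted p = 0.0585 to 0.0772) and Itln1 without KO library 1 or KO library 2 (edgeR adjusted p = 0.108 to 0.122).

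**Figure D1:**
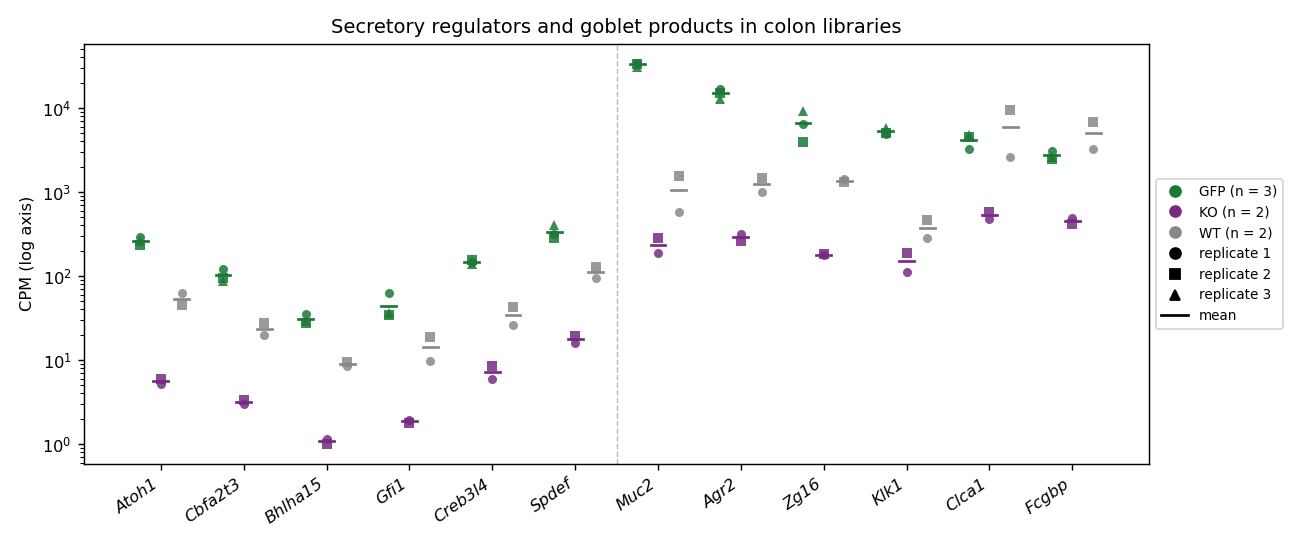
CPM on a log axis for 6 secretory regulators (left) and 6 goblet products (right) in GFP cells (n = 3), KO crypts (n = 2) and WT crypts (n = 2), with each point a library, its shape the replicate number, and the bar the group mean. GFP libraries lie above KO libraries for every gene shown, and for Clca1 and Fcgbp a WT library lies above all GFP libraries.

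ATOH1 binds E-boxes, so the promoters of these genes were searched for the letters CAGCTG and CAGATG over 250 bases before and 50 bases after each RefSeq start (build GRCm38.p6), on both strands; CAGCTG reads the same on both. CAGCTG was found in 4 of 22 promoters of 14 secretory regulators matched (18.18%) and in 4 of 13 promoters of 12 goblet products matched (30.77%), against 16.3% of all 32851 promoters. CAGATG was found in 13.64% and 30.77% of these promoters, against 17.15% of all. The regulator promoters holding CAGCTG were those of Cbfa2t3, Hes6 (not called, log2 -0.52) and Klf4 (lower, log2 -1.87). Another Cbfa2t3 promoter had no match. The goblet promoters holding it were those of Muc2, Sval1, Fcgbp and Guca2a, all called higher. The 4 called genes of both lists with the greatest fold change among those holding CAGCTG are shown, to let their sequence be read beside their values; capitals mark CAGCTG and each runs 5′ to 3′ along the gene. Muc2 is at chr7:141690090-141690389, plus strand; Sval1, at chr6:41951378-41951677, plus strand; Cbfa2t3, at chr8:122699060-122699359, minus strand; Fcgbp, at chr7:28070986-28071285, plus strand.
Muc2: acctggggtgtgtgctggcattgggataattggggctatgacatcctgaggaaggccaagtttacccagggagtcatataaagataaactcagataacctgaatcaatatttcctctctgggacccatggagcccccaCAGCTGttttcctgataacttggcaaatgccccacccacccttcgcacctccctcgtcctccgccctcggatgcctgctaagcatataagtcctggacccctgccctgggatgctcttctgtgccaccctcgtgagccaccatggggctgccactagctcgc
Sval1: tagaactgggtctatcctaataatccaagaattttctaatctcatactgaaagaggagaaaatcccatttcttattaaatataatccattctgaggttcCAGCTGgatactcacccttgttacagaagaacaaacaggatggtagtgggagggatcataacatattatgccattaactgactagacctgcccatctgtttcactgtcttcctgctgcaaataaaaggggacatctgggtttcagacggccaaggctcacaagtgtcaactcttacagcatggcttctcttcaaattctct
Cbfa2t3: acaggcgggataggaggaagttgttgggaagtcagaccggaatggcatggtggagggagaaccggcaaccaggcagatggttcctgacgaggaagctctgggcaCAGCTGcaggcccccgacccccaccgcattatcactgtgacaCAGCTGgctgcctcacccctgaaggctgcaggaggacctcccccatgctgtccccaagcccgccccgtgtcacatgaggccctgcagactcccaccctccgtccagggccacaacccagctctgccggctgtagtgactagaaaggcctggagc
Fcgbp: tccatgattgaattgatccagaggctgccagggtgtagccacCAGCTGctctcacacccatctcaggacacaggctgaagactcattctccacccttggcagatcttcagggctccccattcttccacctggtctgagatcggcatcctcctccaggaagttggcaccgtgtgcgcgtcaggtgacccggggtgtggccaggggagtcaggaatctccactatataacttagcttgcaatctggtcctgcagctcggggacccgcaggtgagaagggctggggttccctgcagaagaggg
The first match began 112 bases before the start in Muc2, 151 in Sval1, 146 in Cbfa2t3 and 208 in Fcgbp, and Cbfa2t3 held 2. A match is a description of the letters and no evidence of binding. Sval1, a seminal vesicle antigen-like goblet product, had 748, 959 and 939 CPM in GFP cells, against 24.99 and 16.4 CPM in KO crypts (log2 fold change 5.41, SE 0.42, edgeR adjusted p = 7.32e-07). Log2 fold changes moved to 4.60 for Sval1 with the GC and length trend removed.

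The machinery that fills and releases mucin granules rose with its cargo. Of 21 granule traffic and goblet membrane genes, 17 rose and 1 fell, with a median log2 fold change of 1.77. Hepacam2, an adhesion-type membrane protein of goblet cells, had 696, 589 and 475 CPM in GFP cells, against 14.2 and 16.1 CPM in KO crypts. It was 38.7-fold higher (log2 fold change 5.27, SE 0.35, edgeR adjusted p = 1.19e-07). The goblet cell chloride channel gene Best2 had 72.2, 111 and 122 CPM in GFP cells, against 2.96 and 1.26 CPM in KO crypts (log2 5.58), and Slc12a8, a transporter, had 504, 451 and 456 CPM in GFP cells, against 11.4 and 15.1 CPM in KO crypts (log2 5.15). Sytl2, a Rab27 effector that docks granules, had 324, 234 and 196 CPM in GFP cells, against 22.8 and 22.8 CPM in KO crypts (log2 3.46). In each of these the lowest GFP library was above the highest KO library. Unc13d, a vesicle priming factor prominent in blood cells, fell: it had 0.85, 1.12 and 1.49 CPM in GFP cells, against 26.6 and 26.1 CPM in KO crypts (log2 fold change -4.53, SE 0.41, edgeR adjusted p = 1.51e-06). The leukocyte gene Ptprc fell in the same libraries, to 0.531, 1.37 and 1.05 CPM in GFP cells, against 11.2 and 14.1 CPM in KO crypts, and its part in the fall of Unc13d was not tested. Refitting gave a log2 fold change of 6.29 for Best2 without KO library 1 and -3.77 for Unc13d with the GC and length trend removed.

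Enzymes that build mucin sugar chains were mixed, with most higher. Of 25 O-glycosylation genes, 15 rose, 2 fell and 8 did not pass, with a median of 1.52. B3gnt6, the core 3 synthase of colonic mucin, had 139, 134 and 118 CPM in GFP cells, against 3.76 and 9.06 CPM in KO crypts (log2 fold change 4.34, SE 0.38, edgeR adjusted p = 1.49e-06). C1galt1c1, the chaperone of the core 1 synthase, had 373, 278 and 199.9 CPM in GFP cells, against 35.5 and 38.1 CPM in KO crypts (log2 2.94), and the synthase C1galt1 itself rose by log2 2.06. Every GFP library exceeded every KO library for these genes. The sulfotransferase Chst4 and the initiating transferase Galnt5 rose by log2 3.96 and 3.14. The sialyltransferases divided: St3gal6 had 350.1, 427 and 298 CPM in GFP cells, against 86.3 and 77.8 CPM in KO crypts (log2 2.13), whereas St3gal4 had 56.2, 51.3 and 50.2 CPM in GFP cells, against 245 and 217 CPM in KO crypts (log2 fold change -2.14, SE 0.20, edgeR adjusted p = 2.14e-06). Among suppliers of nucleotide sugars, 8 of 13 rose and none fell, with a median of 0.94. Slc35a1, the Golgi carrier of CMP-sialic acid, reached log2 2.13, and Gfpt1, which commits glucose to the hexosamine route, had 4232, 3558 and 2477 CPM in GFP cells, against 1186 and 1131 CPM in KO crypts (log2 1.56). The log2 fold change became 5.09 for B3gnt6 without KO library 2. The adjusted p passed 0.05 for St3gal6 without KO library 2 (edgeR adjusted p = 0.0609).

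Genes of the early secretory pathway also rose in most members. Of 21 tested genes of protein translocation into the endoplasmic reticulum (ER), 18 rose and none fell, with a median of 1.19. The translocon subunit Sec61b had 91.6, 99.1 and 123 CPM in GFP cells, against 27.02 and 25.4 CPM in KO crypts (log2 fold change 1.99, SE 0.18, edgeR adjusted p = 1.74e-06), and Ssr3, a subunit of the translocon-associated complex, had 963, 735 and 519.6 CPM in GFP cells, against 205 and 192 CPM in KO crypts (log2 1.90). Of 22 ER folding genes, 17 rose and 1 fell, with a median of 1.11. With KO library 1 or 2 left out, 11 and 6 of the 22 were called higher. The disulfide isomerase Pdia5 had 304, 265 and 244 CPM in GFP cells, against 27.4 and 25.9 CPM in KO crypts (log2 fold change 3.34, SE 0.35, edgeR adjusted p = 6.72e-06), and the chaperone Hspa5, also known as BiP, had 1456, 1343 and 633 CPM in GFP cells, against 545 and 349.9 CPM in KO crypts (log2 fold change 1.35, SE 0.41, edgeR adjusted p = 0.0152). GFP library 3 was below the other two GFP libraries for Hspa5 but above both KO libraries. No call was made for Hspa5 without GFP library 1 or KO library 2 (edgeR adjusted p = 0.0515 to 0.154).

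Of 20 ER export genes, 14 rose and 1 fell, with a median of 0.92. Copz2, a subunit of the COPI coat, had 55.9, 61.9 and 71.3 CPM in GFP cells, against 1.08 and 1.48 CPM in KO crypts (log2 fold change 5.61, SE 0.36, edgeR adjusted p = 8.33e-08), and the retrieval receptor Kdelr3 had 103, 94.1 and 114 CPM in GFP cells, against 5.56 and 6.81 CPM in KO crypts (log2 4.06). Sec23a, a COPII coat subunit, fell, with 41.03, 31.3 and 35.4 CPM in GFP cells, against 103 and 102 CPM in KO crypts (log2 -1.52). Of 16 genes of the unfolded protein response and ER degradation, 9 rose and none fell, with a median of 0.82. The goblet-restricted stress sensor Ern2 had 477, 426 and 441 CPM in GFP cells, against 59.1 and 65.4 CPM in KO crypts (log2 fold change 2.85, SE 0.29, edgeR adjusted p = 3.78e-06), and its broadly expressed paralog Ern1 rose by log2 1.02.

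**Figure D2:**
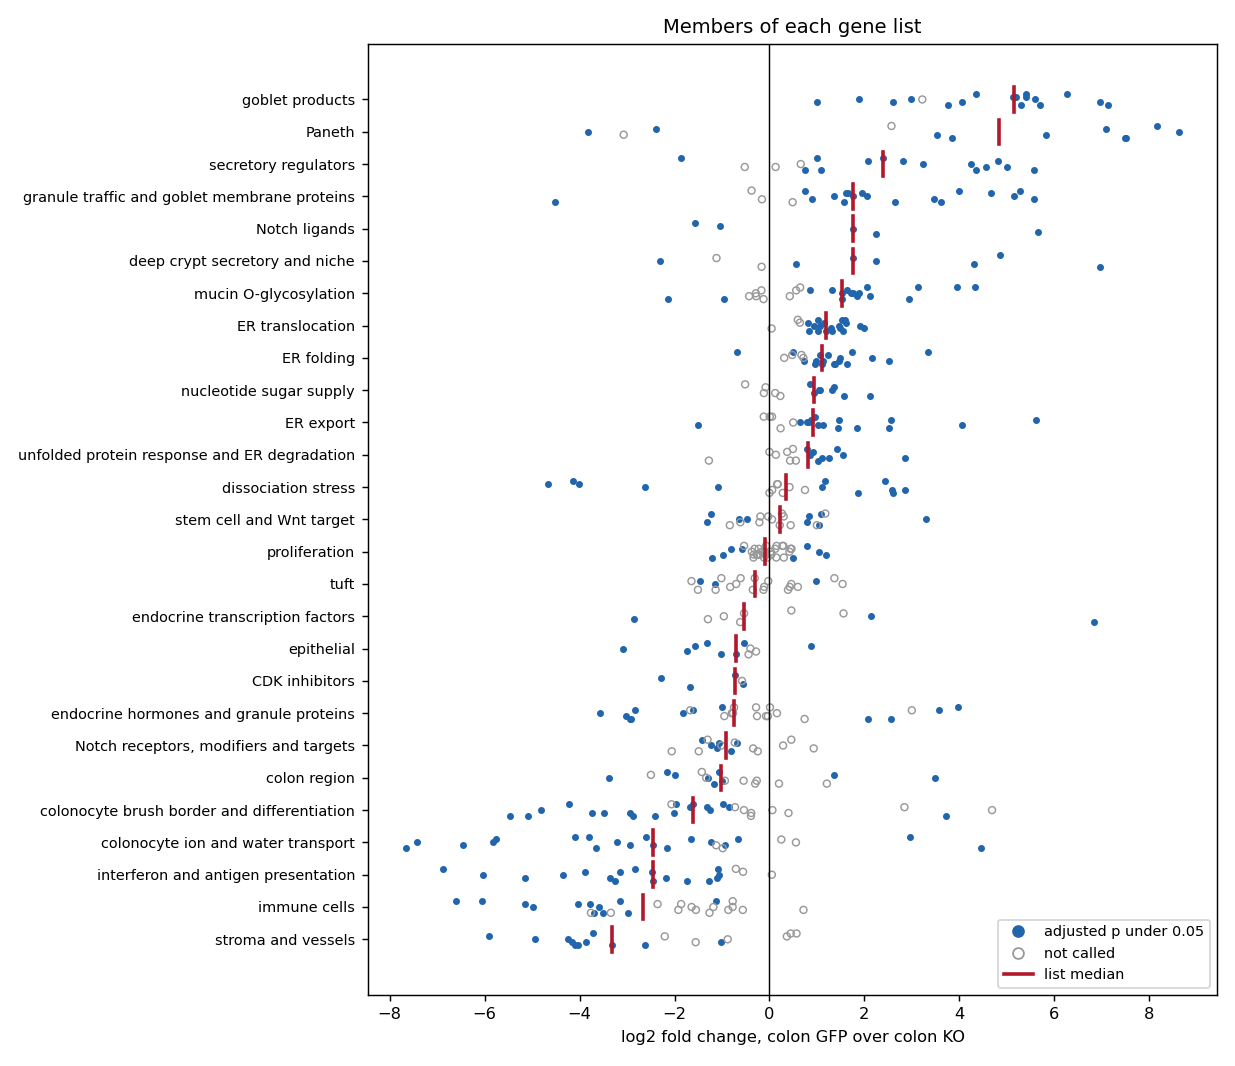
Log2 fold change of GFP cells over KO crypts for every tested member of 27 gene lists, 1 row a list, ordered by the list median (red bar), with filled points for genes called at an adjusted p under 0.05 and open points for the others. Goblet products have a median of 5.16 at the top, and stroma and vessels have a median of -3.32 at the bottom.

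Notch ligands divided by family. The Delta ligands rose and the Jagged ligands were lower. Dll1, a ligand that ATOH1-positive cells present to neighbours, had 57.6, 21.2 and 20.9 CPM in GFP cells, against 6.57 and 7.59 CPM in KO crypts (log2 fold change 2.24, SE 0.49, edgeR adjusted p = 0.00307). Dll4, the other Delta ligand of the crypt, had 35.4, 21.4 and 33.3 CPM in GFP cells, against 7.66 and 10.04 CPM in KO crypts (log2 fold change 1.76, SE 0.30, edgeR adjusted p = 0.000293). GFP library 1 was the highest for both genes, and the lowest GFP library was above both KO libraries. Dll3, an intracellular Delta protein, had 0.744, 0.498 and 0.448 CPM in GFP cells and no count in KO crypts, a level at least 5.27-fold higher taking 3 counts over both KO libraries as the floor. The ligand Jag1 had 9.57, 9.71 and 15.8 CPM in GFP cells, against 24.6 and 23.3 CPM in KO crypts (log2 fold change -1.04, SE 0.30, edgeR adjusted p = 0.00997), and Jag2 had 0.213, 0.623 and 1.64 CPM in GFP cells, against 2.24 and 2.46 CPM in KO crypts (log2 fold change -1.56, SE 0.59, edgeR adjusted p = 0.0391). For both Jagged genes every GFP library was below every KO library. A call was also missed in the 5 colon GFP and KO libraries alone for Jag2 (edgeR adjusted p = 0.0703), in the 7 colon libraries alone for Jag2 (edgeR adjusted p = 0.0558), with DESeq2 for Jag2 (DESeq2 adjusted p = 0.0526) and with the GC and length trend removed for Jag2 (edgeR adjusted p = 0.369). Refitted log2 fold changes were 1.57 for Dll1 without GFP library 1, -2.49 for Jag2 without GFP library 3 and -0.61 for Jag2 with the GC and length trend removed. The call was lost for Jag1 without KO library 1 (edgeR adjusted p = 0.0547) and Jag2 without GFP library 1, GFP library 2, KO library 1 or KO library 2 (edgeR adjusted p = 0.102 to 0.134).

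On the receiving side, 6 of 16 tested receptors, modifiers and targets fell (37.5%, against 25.0% of all genes). None rose, against 23.9% of all genes, and the median was -0.91. With the trend in GC content and length removed, 4 fell and the median was -0.26. Hes1, the Notch target that represses Atoh1, had 15.8, 20.3 and 25.4 CPM in GFP cells, against 45.002 and 51.3 CPM in KO crypts, and 61.7 and 49.2 CPM in WT crypts. All GFP libraries were below all crypt libraries (log2 fold change -1.24, SE 0.25, edgeR adjusted p = 0.000966). The protease Adam10, which cleaves Notch at the cell surface, had 82.7, 57.6 and 54.7 CPM in GFP cells, against 173 and 176 CPM in KO crypts (log2 -1.42), and the Notch inhibitor Numb had 37.6, 37.9 and 31.1 CPM in GFP cells, against 72.02 and 77.6 CPM in KO crypts (log2 -1.07). The receptor Notch2 had 2.44, 2.61 and 5.23 CPM in GFP cells, against 7.22 and 7.31 CPM in KO crypts (log2 -1.11, edgeR adjusted p = 0.0226). The calls of the glycosyltransferases Lfng and Rfng (log2 -0.68 and -0.82) were lost when the trend with GC content and length was removed (log2 -0.04, edgeR adjusted p = 0.917 for Lfng and log2 -0.18, edgeR adjusted p = 0.445 for Rfng). Notch1 had 16.2, 15.4 and 27.6 CPM in GFP cells, against 54.6 and 55.7 CPM in KO crypts, and the target Nrarp had 9.89, 11.2 and 11.51 CPM in GFP cells, against 18.7 and 71.6 CPM in KO crypts. Both had all GFP libraries below all KO libraries but missed the threshold (edgeR adjusted p = 0.0849 for Notch1 and 0.064 for Nrarp), the 2 KO libraries of Nrarp being far apart. The threshold was missed for Notch2 without GFP library 1, GFP library 2, KO library 1 or KO library 2 (edgeR adjusted p = 0.0734 to 0.0886), Lfng without GFP library 1, GFP library 2, GFP library 3, KO library 1 or KO library 2 (edgeR adjusted p = 0.0612 to 0.132) and Rfng without KO library 1 (edgeR adjusted p = 0.0576).

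Enteroendocrine genes did not move together. Of 25 hormone and granule genes tested, 4 rose, 8 fell and 13 did not pass, with a median of -0.75. Without KO library 2, 5 were called lower. The granule protein Chga, a general marker of these cells, had 1.701, 2.12 and 3.44 CPM in GFP cells, against 13.4 and 23.04 CPM in KO crypts, and 29.8 and 31.4 CPM in WT crypts. GFP cells were lower than both crypt groups (log2 fold change -2.94, SE 0.44, edgeR adjusted p = 0.000128). The colonic hormones Insl5 and Pyy followed: Insl5 had 1.06, 2.74 and 7.02 CPM in GFP cells, against 23.8 and 25.6 CPM in KO crypts (log2 fold change -2.82, SE 0.53, edgeR adjusted p = 0.00191), and Pyy had 1.91, 7.097 and 12.7 CPM in GFP cells, against 23.9 and 25.9 CPM in KO crypts (log2 fold change -1.82, SE 0.48, edgeR adjusted p = 0.0079). In both, GFP library 3 was the highest of the GFP libraries and still below both KO libraries. The prohormone-processing enzyme Cpe fell to 0.425, 0.747 and 1.195 CPM in GFP cells, against 9.101 and 9.06 CPM in KO crypts (log2 -3.56), and neurotensin (Nts) fell by 2.92 on the log2 scale. Gcg, the proglucagon gene of L cells, had 10.9, 20.7 and 23.2 CPM in GFP cells, against 19.5 and 24.02 CPM in KO crypts and did not pass (edgeR adjusted p = 0.608). Log2 fold changes moved to -3.71 for Insl5 and -2.48 for Pyy without GFP library 3 and -2.34 for Chga and -3.43 for Insl5 with the GC and length trend removed.

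Other endocrine genes were higher. Secretin (Sct) had 72.2, 40.96 and 51.7 CPM in GFP cells, against 2.89 and 4.07 CPM in KO crypts (log2 fold change 3.98, SE 0.68, edgeR adjusted p = 0.00076), and the granule phosphatase gene Ptprn2 had 116, 98.9 and 106 CPM in GFP cells, against 7.58 and 10.3 CPM in KO crypts (log2 fold change 3.58, SE 0.46, edgeR adjusted p = 6.09e-05). The prohormone convertase Pcsk1 had 36.8, 40.2 and 27.6 CPM in GFP cells, against 6.21 and 5.55 CPM in KO crypts (log2 2.57), and the vesicular monoamine transporter Slc18a1 rose by log2 2.08. The groups did not overlap in any of these 4. Of 14 endocrine transcription factors, 9 had enough counts to test, of which 2 rose and 1 fell, with a median of -0.53. The median was 0.11 without GFP library 1, over 9 genes, and 0.91 without KO library 2, over 13 genes. In the 5 colon GFP and KO libraries alone it was 2.15, over 3 genes. Both the libraries and the genes tested differ between these fits, so the median gives no direction. Neurog3, the factor of endocrine progenitors, had 1.49, 0.996 and 1.49 CPM in GFP cells and no count in either KO library, against 2.16 and 1.57 CPM in WT crypts. GFP cells were at least 12.4-fold higher than KO crypts, with 3 counts over both KO libraries as the floor. Its target Neurod1 had 0.106, 0 and 0.149 CPM in GFP cells, against 0.795 and 0.562 CPM in KO crypts (log2 fold change -2.86, SE 0.85, edgeR adjusted p = 0.0125), and 2.08 and 2.19 CPM in WT crypts. St18 rose (log2 2.15), all at levels of a few CPM or less. The other 6 tested did not pass. Refitting gave a log2 fold change of 1.42 for St18 without KO library 1 and 3.61 for St18 without KO library 2. The adjusted p passed 0.05 for Neurod1 without KO library 1 (edgeR adjusted p = 0.07) and St18 without KO library 1 (edgeR adjusted p = 0.173).

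**Figure D3:**
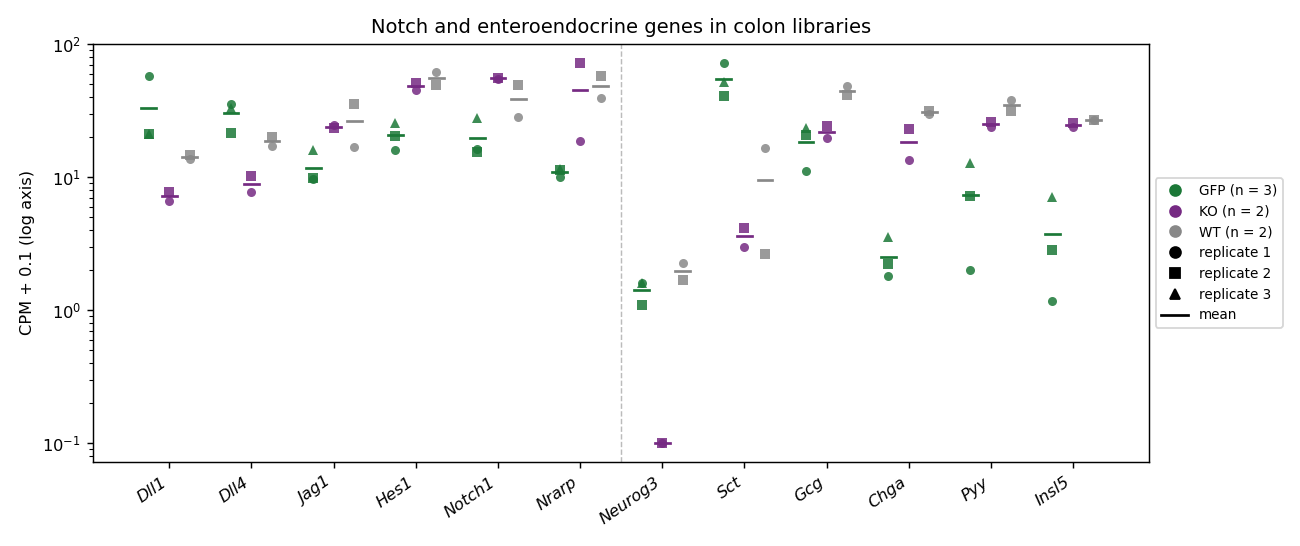
CPM plus 0.1 on a log axis for 6 Notch genes (left) and 6 enteroendocrine genes (right) in GFP cells (n = 3), KO crypts (n = 2) and WT crypts (n = 2), with each point a library, its shape the replicate number, and the bar the group mean. Dll1, Dll4 and Sct lie higher in GFP cells, Hes1, Chga, Pyy and Insl5 lie lower, and the KO points of Neurog3 are at a count of 0.

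Tuft cells, a further rare epithelial type that senses parasites, showed little difference at this depth. Of 21 tuft genes tested, 1 rose and 2 fell, with a median of -0.31. The median was 0.09 without GFP library 1 and 0.22 without KO library 2, the latter over 24 genes. With no filter on low counts 5 fell. The defining kinase-like gene Dclk1 had 2.87, 8.84 and 9.71 CPM in GFP cells, against 4.33 and 6.39 CPM in KO crypts. Its groups overlapped (edgeR adjusted p = 0.768).

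Deep crypt secretory and niche genes were higher, with 6 of 9 up, 1 down and a median of 1.76. The rises include Dll1 and Dll4, also counted as Notch ligands, and Reg4, also counted as a goblet product. The median was 0.54 with DESeq2 and 0.47 with no filter on low counts, over 11 and 11 genes. Reg4, the lectin that marks deep crypt secretory cells, had 3463, 2813 and 2159 CPM in GFP cells, against 27.1 and 18.1 CPM in KO crypts, and 509 and 125 CPM in WT crypts. It was 125-fold higher (log2 fold change 6.96, SE 1.76, edgeR adjusted p = 0.01). The receptor tyrosine kinase Kit, a surface marker of the same cells, had 440.5, 406 and 304 CPM in GFP cells, against 15.5 and 23.2 CPM in KO crypts (log2 fold change 4.31, SE 0.52, edgeR adjusted p = 4.29e-05). The growth factor Egf, which these cells give to stem cells, had 26.4, 25.9 and 13.9 CPM in GFP cells, against 0.433 and 1.05 CPM in KO crypts (log2 fold change 4.87, SE 0.49, edgeR adjusted p = 3.31e-06). For all 3 genes the lowest GFP library was far above the highest KO library. Areg, another ligand of the EGF receptor, fell instead, with 4.996, 5.105 and 2.99 CPM in GFP cells, against 26.1 and 17.3 CPM in KO crypts (log2 -2.30). The log2 fold change became 5.62 for Egf without KO library 2. No call was made for Reg4 without KO library 1 or KO library 2 (edgeR adjusted p = 0.0745 to 0.0872).

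Paneth genes were counted as higher for 8 of 12 members, with a median of 4.84, but the levels of most rested on GFP library 1. Lyz1, the Paneth lysozyme, had 1432, 37.7 and 41.99 CPM in GFP cells, against 2.96 and 2.53 CPM in KO crypts. The alpha-defensin gene Defa24 had 308, 4.23 and 2.84 CPM in GFP cells, against 0.217 and 0.492 CPM in KO crypts, and the protease Mmp7, which activates defensins, had 135, 7.97 and 10.01 CPM in GFP cells, against 1.16 and 0.632 CPM in KO crypts. In each, GFP library 1 was far above GFP libraries 2 and 3. Without it the list median was 3.10, with 4 of 12 higher and 2 lower, and Lyz1 had a log2 fold change of 3.86 (edgeR adjusted p = 0.000202), Defa24 of 3.28 (edgeR adjusted p = 0.0891) and Mmp7 of 3.32 (edgeR adjusted p = 0.000897). With KO library 1 or 2 left out, 1 and 1 of the 12 were called higher, as was 1 in the fits of the 5 or of the 7 colon libraries alone. The Paneth genes' summed level was 2654, 519 and 693 CPM in GFP cells, against 3605 and 1042 CPM in KO crypts, where Reg3b alone had 2692 and 759 CPM in KO crypts. The defensins are a family of near-identical copies, so the split of reads among them is uncertain. Nupr1, a stress-responsive chromatin protein on the same list, did not follow library 1: it had 399, 362 and 338 CPM in GFP cells, against 20.4 and 30.5 CPM in KO crypts (log2 fold change 3.85, SE 0.37, edgeR adjusted p = 3.35e-06). The antimicrobial lectin gene Reg3b fell to 102, 56.8 and 206 CPM in GFP cells, against 2692 and 759 CPM in KO crypts (log2 -3.83), outside the pattern of the other members. The call was also lost in the 5 colon GFP and KO libraries alone for Lyz1 (edgeR adjusted p = 0.131), Defa24 (edgeR adjusted p = 0.184) and Mmp7 (edgeR adjusted p = 0.119) and in the 7 colon libraries alone for Lyz1 (edgeR adjusted p = 0.0781), Defa24 (edgeR adjusted p = 0.134) and Mmp7 (edgeR adjusted p = 0.0635). Refitted log2 fold changes were -4.43 for Reg3b without GFP library 3, -2.66 for Reg3b without KO library 1 and -4.49 for Reg3b without KO library 2. The call was lost for Lyz1 without KO library 1 or KO library 2 (edgeR adjusted p = 0.0775 to 0.0816), Defa24 without GFP library 1, KO library 1 or KO library 2 (edgeR adjusted p = 0.0891 to 0.186) and Mmp7 without KO library 1 or KO library 2 (edgeR adjusted p = 0.0739 to 0.0929).

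Stem cell and Wnt target genes were called at 23.8% higher and 19.0% lower, near the shares of all genes (23.9% and 25.0%). Proliferation genes were called less often than all genes, at 11.8% each way. Of 21 stem cell and Wnt target genes, 5 rose and 4 fell, with a median of 0.22; the 4 falls were 1 without GFP library 1, 1 without GFP library 2, 1 without KO library 1 and 0 without KO library 2, which also left 3 rises. The median was -0.03 without GFP library 3 and -0.07 without KO library 1. Tnfrsf19, a Wnt-induced receptor of stem cells also called Troy, had 12.97, 10.2 and 5.53 CPM in GFP cells, against 1.01 and 0.913 CPM in KO crypts (log2 fold change 3.31, SE 0.51, edgeR adjusted p = 0.000117). The positional receptor Ephb3 rose by log2 1.09. Of 34 proliferation genes, 4 rose and 4 fell, with a median of -0.08, and 2 rose and 2 fell without KO library 1 and 2 rose without KO library 2. The proliferation marker Mki67 had 483, 395 and 290.5 CPM in GFP cells, against 283 and 269 CPM in KO crypts (log2 fold change 0.50, SE 0.20, edgeR adjusted p = 0.0475). Inhibitors of cyclin-dependent kinases were lower for 4 of 5, with a median of -0.72 (2 without KO library 1): Cdkn1a, also called p21, had 54.5, 53.04 and 97.4 CPM in GFP cells, against 216 and 217 CPM in KO crypts (log2 fold change -1.67, SE 0.25, edgeR adjusted p = 0.000113), and Cdkn2b had 4.15, 4.36 and 9.26 CPM in GFP cells, against 28.5 and 28.03 CPM in KO crypts (log2 -2.28). A call was also missed in the 5 colon GFP and KO libraries alone for Mki67 (edgeR adjusted p = 0.0909), with no filter on low counts for Mki67 (edgeR adjusted p = 0.246) and with the GC and length trend removed for Mki67 (edgeR adjusted p = 0.103). Log2 fold changes moved to 1.69 for Ephb3 with the GC and length trend removed. The threshold was missed for Mki67 without GFP library 1, GFP library 2, KO library 1 or KO library 2 (edgeR adjusted p = 0.0942 to 0.236).

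Genes of absorptive colonocytes were lower in GFP cells. Of 23 genes of ion and water transport, 17 fell and 2 rose, with a median of -2.45. The sodium-proton exchanger Slc9a3 had 0.213, 0.623 and 2.54 CPM in GFP cells, against 158 and 256 CPM in KO crypts, and the water channel Aqp8 had 0.319, 1.99 and 6.13 CPM in GFP cells, against 448 and 452 CPM in KO crypts. Car1, the colonocyte carbonic anhydrase, had 187, 309 and 638 CPM in GFP cells, against 4633 and 4935 CPM in KO crypts, and the chloride-bicarbonate exchanger Slc26a3 had 6.91, 11.2 and 34.4 CPM in GFP cells, against 853 and 1016 CPM in KO crypts. GFP library 3 was the highest of the GFP libraries for all 4 and far below both KO libraries. GFP cells were 201-fold lower for Slc9a3 (log2 fold change -7.65, SE 0.55, edgeR adjusted p = 8.98e-07), 172-fold lower for Aqp8 (log2 -7.42) and 54.1-fold lower for Slc26a3 (log2 -5.76). Without GFP library 3 the median was -2.57, with 18 of 23 lower. The exceptions were Guca2b, the hormone uroguanylin, with 137, 141 and 150.5 CPM in GFP cells, against 6.72 and 6.32 CPM in KO crypts (log2 fold change 4.45, SE 0.26, edgeR adjusted p = 4.74e-08), and the sodium channel subunit Scnn1b, with 9.35, 14.7 and 24.1 CPM in GFP cells, against 1.88 and 2.18 CPM in KO crypts (log2 2.97). Refitting gave a log2 fold change of -6.82 for Aqp8 without GFP library 1 and -8.96 for Slc9a3, -8.65 for Aqp8 and -6.69 for Slc26a3 without GFP library 3.

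Of 27 brush border and differentiation genes, 17 fell and 1 rose, with a median of -1.61. Krt20, the keratin of surface cells, had 54.8, 21.04 and 46.3 CPM in GFP cells, against 1379 and 1405 CPM in KO crypts (log2 fold change -5.09, SE 0.52, edgeR adjusted p = 8.99e-06). Its GFP libraries were all below its KO libraries and below WT crypts, at 1287 and 735 CPM. The brush border phosphatase Alpi and the transmembrane mucin Muc3 fell (log2 -4.22 and -2.40). Ceacam1 and Muc13, surface proteins of most colon cells, did not pass (edgeR adjusted p = 0.212 and 0.429). Anpep, an aminopeptidase of small intestinal enterocytes, was the member that rose, with 94.5, 60.4 and 36.3 CPM in GFP cells, against 4.48 and 5.198 CPM in KO crypts (log2 fold change 3.72, SE 0.64, edgeR adjusted p = 0.000448).

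Interferon and antigen presentation genes fell for 17 of 20, none rose, and the median was -2.46. Cd74, the chaperone of class II molecules, had 11.4, 2.86 and 127 CPM in GFP cells, against 1783 and 1526 CPM in KO crypts, and Ciita, the factor that switches class II genes on, had 0.638, 0.374 and 0.598 CPM in GFP cells, against 66.2 and 63.5 CPM in KO crypts. Tap1, which loads peptides for class I molecules, had 11.7, 11.3 and 38.3 CPM in GFP cells, against 139 and 147 CPM in KO crypts. GFP library 3 was far above the other two for Cd74, and every GFP library was below every KO library for all 3 genes. The fits gave log2 fold change -5.15, SE 1.31, edgeR adjusted p = 0.01 for Cd74, log2 -6.88 for Ciita and log2 -2.83 for Tap1. Without GFP library 3 the list had 19 of 20 lower and a median of -3.21. The class II chain gene H2-Eb1, outside the list, had 1.49, 1.25 and 11.7 CPM in GFP cells, against 334 and 276 CPM in KO crypts (log2 -6.07). The call was also lost in the 5 colon GFP and KO libraries alone for Cd74 (edgeR adjusted p = 0.101) and in the 7 colon libraries alone for Cd74 (edgeR adjusted p = 0.0514). The log2 fold change became -7.84 for Cd74, -3.63 for Tap1 and -7.78 for H2-Eb1 without GFP library 3.

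Genes of immune cells, stroma and vessels were lower in GFP cells or did not pass. Of 26 immune genes, 12 fell and none rose, with a median of -2.67, and of 17 stromal and vessel genes, 11 fell and none rose, with a median of -3.32. The stromal count was 5 without GFP library 1, 5 without KO library 1 and 7 without KO library 2, and the median ran from -4.50 without GFP library 2 to -2.58 without KO library 1. The pan-leukocyte gene Ptprc, given above, fell by 3.70 on the log2 scale (SE 0.48, edgeR adjusted p = 3.97e-05). The antibody joining chain Jchain of plasma cells had 0, 0.1245 and 0 CPM in GFP cells, against 73.2 and 21.3 CPM in KO crypts, and the neutrophil gene Ly6g had 0, 0.249 and 0.598 CPM in GFP cells, against 43.1 and 35.4 CPM in KO crypts. Both are outside the list of 26 immune genes and were named for the size of their fall. The fibroblast collagen Col3a1 had 0.106, 1.12 and 0.747 CPM in GFP cells, against 13.1 and 26.2 CPM in KO crypts, and the matrix protein decorin (Dcn) had 0, 0.498 and 0.747 CPM in GFP cells, against 11.6 and 35.3 CPM in KO crypts. The GFP libraries were at or near 0 for these genes and all KO libraries were clearly above. Summed over the list, immune genes had 39.3, 47.8 and 72.3 CPM in GFP cells, against 166 and 188 CPM in KO crypts. Stromal genes summed to 31.4, 40.96 and 33.5 CPM in GFP cells, against 103 and 160.1 CPM in KO crypts. The part of these cells in the lower class II and interferon values was not tested. The adjusted p passed 0.05 for Jchain without KO library 1 (edgeR adjusted p = 0.0545).

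**Figure D4:**
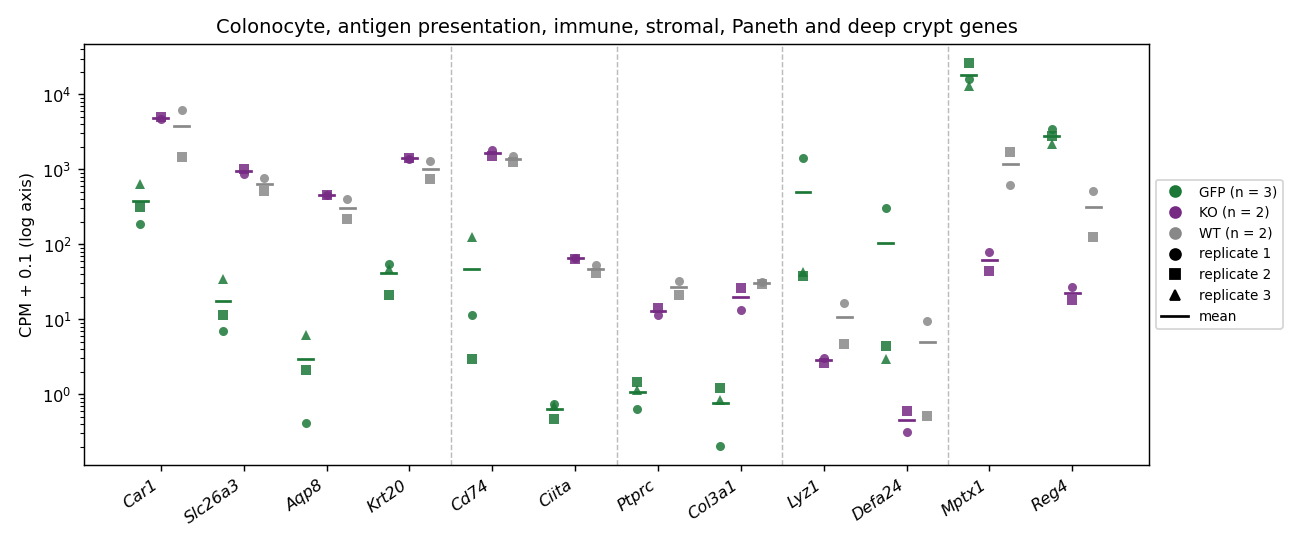
CPM plus 0.1 on a log axis for colonocyte, antigen presentation, immune and stromal, Paneth and deep crypt secretory genes (blocks from left to right, with Mptx1 and Reg4 last) in GFP cells (n = 3), KO crypts (n = 2) and WT crypts (n = 2), with each point a library, its shape the replicate number, and the bar the group mean. GFP replicate 3 (triangle) is the highest GFP library for Car1, Slc26a3, Aqp8 and Cd74, and GFP replicate 1 (circle) for Lyz1 and Defa24.

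Among general epithelial genes, 7 of 11 fell and 1 rose, with a median of -0.71. The adhesion gene Epcam, which marks epithelium, had 1372, 1277 and 1113 CPM in GFP cells, against 1670.3 and 1732 CPM in KO crypts and did not pass (edgeR adjusted p = 0.147). The keratin gene Krt8 had 223, 229 and 399 CPM in GFP cells, against 2377 and 2430.4 CPM in KO crypts (log2 fold change -3.08, SE 0.33, edgeR adjusted p = 5.84e-06). Of 18 genes of colon regional identity, 7 fell and 2 rose, with a median of -1.03; 4 fell without GFP library 1, 4 without KO library 1 and 4 without KO library 2. The intestinal master factor Cdx2 had 21.4, 18.8 and 33.3 CPM in GFP cells, against 242 and 268 CPM in KO crypts, and every GFP library was below every KO library (log2 fold change -3.38, SE 0.24, edgeR adjusted p = 1.89e-07). Its relative Cdx1 had 187, 239 and 337 CPM in GFP cells, against 376 and 364 CPM in KO crypts and did not pass (edgeR adjusted p = 0.0572). Among Hox genes, which set position along the gut, Hoxd8 and Hoxb7 rose (log2 3.48 and 1.36), and Hoxa9 and Hoxa10 fell (log2 -1.99 and -1.06).

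Of 20 dissociation stress genes, which include immediate early genes that tissue dissociation can induce, 8 were higher and 5 lower, with a median of 0.35. Fosb had 50.1, 43.8 and 40.3 CPM in GFP cells, against 8.16 and 4.21 CPM in KO crypts (log2 fold change 2.85, SE 0.32, edgeR adjusted p = 7.87e-06), and Egr1 had 277, 182 and 146 CPM in GFP cells, against 44.4 and 22.5 CPM in KO crypts (log2 fold change 2.59, SE 0.41, edgeR adjusted p = 0.000269). In contrast, Jund had 7.76, 7.84 and 9.11 CPM in GFP cells, against 158 and 131 CPM in KO crypts (log2 fold change -4.14, SE 0.19, edgeR adjusted p = 1.7e-08), and the cytokine inhibitor Socs3 had 1.38, 0.498 and 1.49 CPM in GFP cells, against 34.4 and 22.7 CPM in KO crypts (log2 -4.66). The groups did not overlap for any of the 4. Their part in the other differences was not tested. Refitted log2 fold changes were 3.27 for Egr1, -2.88 for Jund and -3.99 for Socs3 with the GC and length trend removed.

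Outside the lists, the greatest rises at 20 CPM or more included RNAs that usually lack a poly(A) tail. The histone gene Hist1h4d had 99.3, 128 and 351 CPM in GFP cells, against 0.217 and 0.211 CPM in KO crypts (log2 fold change 9.74, SE 0.77, edgeR adjusted p = 2.2e-06), and the small nuclear RNA Rn7sk had 300.3, 441 and 680.5 CPM in GFP cells, against 1.37 and 1.62 CPM in KO crypts (log2 fold change 8.30, SE 0.45, edgeR adjusted p = 3.93e-08). Of 24 histone genes of the replication-dependent clusters, 19 rose and 1 fell, with a median of 4.83. Of 34 proliferation genes, given above, 4 rose and 4 fell. The mitochondrial ribosomal RNA mt-Rnr2 rose by log2 9.11, whereas the median for protein-coding mitochondrial genes was -0.28 and 1 of 7 fell. The labels name total RNA and standard Illumina protocols for every library, and cell type and library chemistry cannot be told apart for these genes. Hnrnpa0, which encodes an RNA-binding protein, had 0.213, 0.1245 and 0.149 CPM in GFP cells, against 76.7 and 68.2 CPM in KO crypts (log2 fold change -8.68, SE 0.29, edgeR adjusted p = 4.95e-10). Log2 fold changes also moved with base composition, with medians from 0.20 in the fifth of genes lowest in GC content to -0.51 in the fifth highest. Log2 fold changes moved to 8.98 for Hist1h4d without GFP library 3.

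Genes of receptors, channels and secreted proteins were also among these rises. Mptx1, a mucosal pentraxin, had 15969.9, 26041 and 12709 CPM in GFP cells, against 78.8 and 44.04 CPM in KO crypts (log2 fold change 8.21, SE 1.399, edgeR adjusted p = 0.000817). The acetylcholine receptor subunit Chrnb4 had 126, 92.8 and 98.9 CPM in GFP cells, against 0.867 and 0.702 CPM in KO crypts (log2 fold change 7.06, SE 0.37, edgeR adjusted p = 2.13e-08), and the potassium channel Kcnma1 had 85.8, 80.7 and 62.01 CPM in GFP cells, against 0.939 and 0.983 CPM in KO crypts (log2 fold change 6.29, SE 0.38, edgeR adjusted p = 5.6e-08). Ramp1, which forms the receptor for the neuropeptide CGRP, had 246, 335 and 378 CPM in GFP cells, against 3.18 and 4.14 CPM in KO crypts (log2 fold change 6.44, SE 0.38, edgeR adjusted p = 5.39e-08). No overlap between arms was a condition for naming these 4 genes. WT crypts were intermediate for Ramp1, at 23.02 and 31.2 CPM. The annexin gene Anxa13 had 97.6, 83.2 and 51.6 CPM in GFP cells, against 0.65 and 0.632 CPM in KO crypts (log2 6.89), the colipase gene Clps had 72.5, 98.4 and 101 CPM in GFP cells, against 0.361 and 0.281 CPM in KO crypts (log2 8.09) and the tyrosine catabolism gene Hpd had 233, 248 and 267 CPM in GFP cells, against 3.18 and 5.9003 CPM in KO crypts (log2 5.77). Among the greatest falls, the chloride channel accessory gene Clca4b had 6.59, 1.99 and 2.84 CPM in GFP cells, against 573 and 376 CPM in KO crypts (log2 fold change -6.93, SE 0.54, edgeR adjusted p = 1.23e-06). The inducible nitric oxide synthase Nos2 and the complement gene C3 fell (log2 -6.11 and -6.23), as did the circadian factor Dbp (log2 -6.30). The peptide transporter Slc15a1, the phosphatase Ptprh and the membrane gene Emp1 were also far lower (log2 -5.78, -5.81 and -5.72). Refitting gave a log2 fold change of -7.62 for Clca4b without GFP library 1, -7.14 for Dbp without GFP library 2, -7.24 for C3 and -6.42 for Emp1 without GFP library 3, -5.42 for C3 without KO library 2 and -5.38 for Dbp with the GC and length trend removed.

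The same contrast in the ileum (3 GFP and 2 KO libraries, collected in the same way) allowed a test of the difference between tissues. This difference of differences passed for 713 of 15274 genes (4.67%), of which 2.13% were higher and 2.54% lower in colon. Atoh1 itself differed, with a log2 fold change of 5.56 in colon, against 8.45 in ileum (difference -2.88, edgeR adjusted p = 0.00127). Among goblet products 10 of 18 differed, and among granule traffic genes 12 of 21. The medians were 5.16 in colon, against 7.53 in ileum, for goblet products, and 1.77 in colon, against 4.24 in ileum, for granule genes. Hepacam2, for instance, stood at 5.27 in colon, against 8.29 in ileum (edgeR adjusted p = 0.00103), and Ano7 at 4.68, against 8.80 (edgeR adjusted p = 6.46e-05). B3gnt6 went the other way, at 4.34 in colon, against -0.25 in ileum (edgeR adjusted p = 0.000438), and so did Guca2b, at 4.45, against 2.56 (edgeR adjusted p = 0.00255). Klf4 fell in colon, at -1.87, and had 0.78 in ileum (edgeR adjusted p of the difference = 0.000542). No gene of ER translocation, of the Notch lists or of the interferon list passed this test. A missed threshold does not show that the tissues act alike. Ileal GFP library 1 stood apart: its goblet products summed to 59275 CPM, against 155747 and 138989 CPM in ileal GFP libraries 2 and 3. Colon GFP libraries had 83709, 77669 and 81582 CPM. Reads outside genes made up 52.29% of uniquely placed reads in ileal GFP library 1, against 27.78% and 31.25% in libraries 2 and 3. The part of this library and of ileal KO levels in the tissue differences was not tested.

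**Figure D5:**
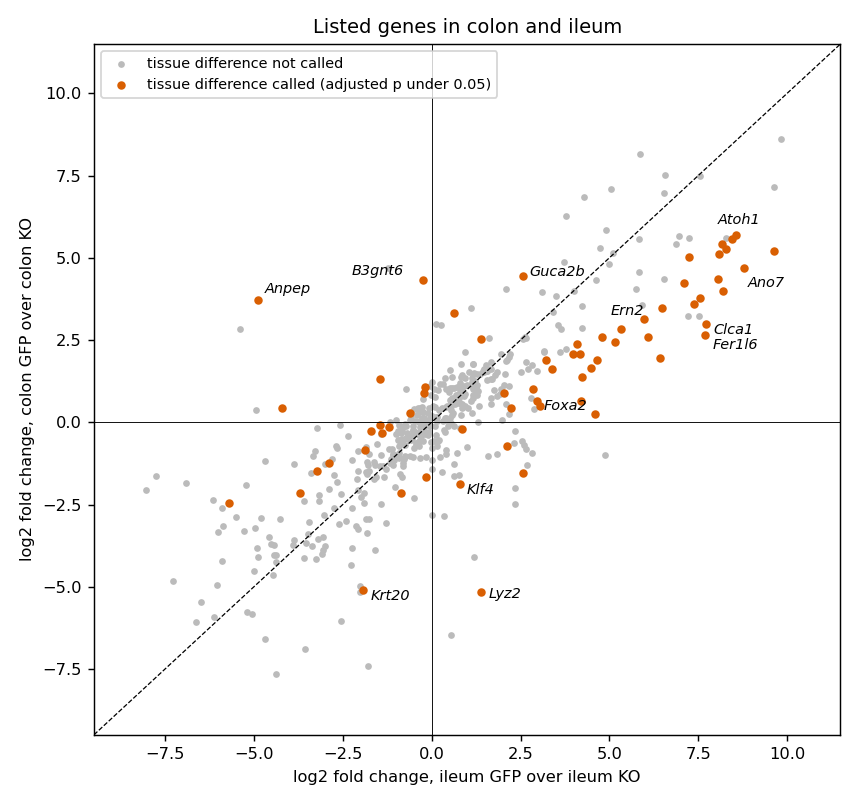
Log2 fold change of GFP cells over KO crypts in colon (vertical) against ileum (horizontal) for every listed gene tested, with orange points where the tissue difference passed an adjusted p under 0.05 and a dashed line of equal change. Called genes such as Atoh1 (5.56 in colon, 8.45 in ileum) and Ano7 lie below the line, and Anpep (3.72 in colon, -4.89 in ileum) lies in the upper left.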

How the data were processed

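The authors deposited 1 table of raw read counts per gene for each library, with Ensembl gene identifiers. Reads were aligned to mm9 with TopHat 1.4.1 and counted with HTSeq, per the submitters' processing notes; the sources used here name neither strand nor annotation release. Libraries were made by standard Illumina methods from total RNA, per the labels' protocols. Counts were joined to symbols from GENCODE M21 by identifier (31004 of 36536); promoter coordinates are those of GRCm38.p6 and were not mixed with mm9.

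Genes passing edgeR's expression filter (15274) were fitted over all 14 libraries in 6 groups with edgeR 4.0.16 (R 4.3.3), using TMM scaling and the robust quasi-likelihood F-test, with p-values adjusted by Benjamini-Hochberg over all genes tested and calls at 0.05. The TMM factors were 0.6375 to 0.7241 for GFP and 1.321 to 1.322 for KO libraries, and the common biological coefficient of variation was 0.232. CPM are counts per 1000000 of the TMM-scaled total. Lines that name no gene stayed out. The method was run on simulated counts with few genes changed and library composition otherwise alike. That setting does not cover the share of genes called here or the mitochondrial ribosomal RNA of the GFP libraries. Alternatives were DESeq2 1.42.0, other library sizes, no filter, fewer libraries, a replicate block, each library left out and removal of GC and length trends. List counts and medians under an alternative are over the genes tested in that fit, whose number can differ.

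The genes named were drawn, though not all of them are named, from up to 6 called members of each of 28 lists each way and up to 4 others by level, all members of the regulator, endocrine factor and Notch lists, the 15 greatest changes each way outside the lists and the 6 greatest tissue differences each way. The genes outside the lists also had to be called, to reach 20 CPM or more in the higher arm and to show no overlap between arms. Lack of overlap was therefore fixed for them by selection. Ang4 was named after its values were seen. The members and lists were chosen with earlier results of these data known. Of 537 list entries, 530 matched a gene. Whether replicates are different animals is not stated in the labels; the p-values reflect only how these samples scatter, which may be technical; counting floors cover counting error only.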

Additional observations from a re-analysis of the deposited data

Results flagged for a closer look

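The contrast of GFP cells with KO crypts differed between colon and ileum for the following genes, chosen as the 6 called differences each way at 20 CPM or more in some group; means carry the SD (n = 3 GFP and 2 KO libraries per tissue), and each difference was tested as an interaction. Anpep, the aminopeptidase described above, had 63.7 ± 29.2 CPM in GFP cells, against 4.84 ± 0.509 CPM in KO crypts in colon, and 194 ± 68.5 CPM in GFP cells, against 5760.4 ± 354 CPM in KO crypts in ileum (difference of log2 fold changes 8.61, edgeR adjusted p = 0.000208). Slc6a19, a neutral amino acid transporter, had 1.39 ± 0.964 CPM in GFP cells, against 1.03 ± 0.0708 CPM in KO crypts in colon, and 4.33 ± 0.307 CPM in GFP cells, against 754 ± 40.1 CPM in KO crypts in ileum (difference of log2 fold changes 7.94, edgeR adjusted p = 1.34e-05). Enpp7, an intestinal sphingomyelinase, had 0.766 ± 0.863 CPM in GFP cells, against 0.0361 ± 0.0511 CPM in KO crypts in colon, and 9.37 ± 5.41 CPM in GFP cells, against 131 ± 44.7 CPM in KO crypts in ileum (difference of log2 fold changes 7.91, edgeR adjusted p = 0.0272). Susd2 had 1.06 ± 0.819 CPM in GFP cells, against 0.285 ± 0.00563 CPM in KO crypts in colon, and 1.19 ± 0.83 CPM in GFP cells, against 68.04 ± 8.39 CPM in KO crypts in ileum (difference of log2 fold changes 7.69, edgeR adjusted p = 0.00088). Slc7a15 had 0.594 ± 0.425 CPM in GFP cells, against 0.141 ± 0.0979 CPM in KO crypts in colon, and 1.302 ± 0.703 CPM in GFP cells, against 48.7 ± 1.07 CPM in KO crypts in ileum (difference of log2 fold changes 7.29, edgeR adjusted p = 0.000653). Pdzk1, a brush border scaffold, had 0.543 ± 0.36 CPM in GFP cells, against 0.0722 ± 0.102 CPM in KO crypts in colon, and 1.26 ± 0.774 CPM in GFP cells, against 23.7 ± 3.89 CPM in KO crypts in ileum (difference of log2 fold changes 7.09, edgeR adjusted p = 0.00211). For these 6 the ileal KO crypts held the highest mean level of the 4 groups. The colon KO means of Enpp7 and Pdzk1, 0.0361 and 0.0722 CPM, were near 0, so the size of their differences is uncertain. The call for Enpp7 was lost without colon GFP library 1 (edgeR adjusted p = 0.179), which also carried ileal genes, and Enpp7 stood below 2 CPM in every colon library; the part of that library's ileal genes in the other 5 is given by the fits without it, in which all 5 were called.

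In the other direction, Grin1os, an antisense gene, had 3.07 ± 0.666 CPM in GFP cells, against 0.606 ± 0.0623 CPM in KO crypts in colon, and 21.2 ± 5.56 CPM in GFP cells, against 0 ± 0 CPM in KO crypts in ileum (difference of log2 fold changes -8.51, edgeR adjusted p = 0.000331). Adra2a, an adrenergic receptor, had 7.03 ± 1.37 CPM in GFP cells, against 35.1 ± 9.18 CPM in KO crypts in colon, and 23.7 ± 9.03 CPM in GFP cells, against 1.15 ± 0.248 CPM in KO crypts in ileum (difference of log2 fold changes -6.67, edgeR adjusted p = 0.000438). Lyz2, the macrophage lysozyme, had 0.6 ± 0.596 CPM in GFP cells, against 23.5 ± 12.03 CPM in KO crypts in colon, and 14.7 ± 7.17 CPM in GFP cells, against 5.67 ± 0.172 CPM in KO crypts in ileum (difference of log2 fold changes -6.54, edgeR adjusted p = 0.00466). Myof, a membrane repair protein of the ferlin family, had 23.8 ± 7.38 CPM in GFP cells, against 76.9 ± 1.97 CPM in KO crypts in colon, and 115 ± 35.1 CPM in GFP cells, against 4.304 ± 0.983 CPM in KO crypts in ileum (difference of log2 fold changes -6.43, edgeR adjusted p = 7.32e-06). Zbtb7c had 8.55 ± 1.05 CPM in GFP cells, against 28.1 ± 0.854 CPM in KO crypts in colon, and 6.68 ± 3.68 CPM in GFP cells, against 0.502 ± 0.284 CPM in KO crypts in ileum (difference of log2 fold changes -5.44, edgeR adjusted p = 0.000275). Fhl1 had 80.3 ± 31.4 CPM in GFP cells, against 110.3 ± 4.77 CPM in KO crypts in colon, and 45.1 ± 11.7 CPM in GFP cells, against 1.72 ± 0.55 CPM in KO crypts in ileum (difference of log2 fold changes -5.17, edgeR adjusted p = 0.00255). Strand was not given in the sources used here, so reads of Grin1os and of the gene it overlaps cannot be told apart. Lyz2 and Lyz1 are near-identical copies, and Lyz1 was high in ileal GFP cells, so the split of reads between them is uncertain.

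Uniquely placed reads outside annotated genes, which no comparison used, made up 24.87%, 31.92% and 30.01% of uniquely placed reads in colon GFP libraries 1, 2 and 3, against 12.1% and 11.43% in colon KO libraries 1 and 2 and at most 11.52% in colon WT libraries. What these reads are was not tested.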

How the results depend on the processing

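The count of 7454 called genes ranged from 7225 to 7822 under 8 other settings: DESeq2, DESeq2 size factors, 2 other library sizes, no filter on low counts, the 5 or 7 colon libraries alone, and a GC and length trend removed, which was chosen after seeing the data. The count at 2-fold or more ranged from 4592 to 5555 under the same settings. With 1 library left out the counts ran from 5046 to 7451, lowest without a KO library, and from 3914 to 4869 at 2-fold or more. The share of calls that were higher stayed within 10 percentage points. The tissue difference was less stable: 713 genes became 1178 with DESeq2 and 1372 with no filter on low counts, and ran from 287 without colon KO library 2 to 1144 without ileal GFP library 1; beyond fewer samples and more genes tested, the cause was not tested. Of 130 called genes named in the report, 109 were called under every setting run, and none changed direction. Among uncalled genes, Hes6 had 0.25 and Cdx1 0.20 after removal of the GC and length trend, and the log2 fold change ran from -0.0023 to 0.21 for Foxa1 and from -0.46 to 0.011 for Gcg with 1 library left out, crossing 0 without GFP library 1.

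The GFP and KO groups of a tissue share the replicate numbers 1 and 2, and number 3 is shared by the GFP groups of colon and ileum. Samples of the same number in the colon GFP and KO groups had deviations correlated at 0.118 and 0.0829. With 2 KO libraries the KO deviations mirror each other, so the correlation with the other KO library only reverses its sign. These values cannot show whether the numbers pair samples. With the number as a replicate block the counts were 7317 called, 4760 at 2-fold or more and 721 for the tissue difference.

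With 2 KO libraries the spread of that group rests on 2 values. Genes at a few counts, among them most endocrine factors, could not be resolved at this depth.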

Other observations

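Against WT crypts, a contrast that shares its GFP libraries with the main one, 7007 genes were called. KO against WT crypts, with 2 against 2 libraries, gave 73. Muc2 had a log2 fold change of 4.95 for GFP cells over WT crypts, Chga of -3.69 and Neurog3 of -0.49. Their edgeR adjusted p values were 0.000107, 2.94e-05 and 0.536 in the same order.

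Genes annotated as antisense had a median log2 fold change of 1.495 for GFP cells over KO crypts (245 genes) and long intergenic RNAs one of 0.83 (97 genes), against -0.03 for 13054 protein-coding genes. Strand is not given in the sources used here, so reads of an antisense gene and of its partner cannot be told apart.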
